A study of Mus musculus with 45 samples.

Results

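The transcripts described here are those of 10 genes among the 54532 of the count table, chosen by symbol. They are 7 pore-forming subunits of voltage-gated calcium channels (Cacna1a, Cacna1b, Cacna1c, Cacna1d, Cacna1e, Cacna1g and Cacna1h) and 3 small GTPases of the RGK family (Rem2, Gem and Rrad). A voltage-gated calcium channel opens when the membrane depolarizes. Its large alpha1 subunit forms the pore and fixes the current type: Cacna1c and Cacna1d give L-type channels, Cacna1a P/Q-type, Cacna1b N-type, Cacna1e R-type, and Cacna1g and Cacna1h T-type. The high-voltage-activated types assemble with a cytosolic beta subunit and an extracellular alpha2delta subunit. In hippocampal neurons L-type channels couple depolarization to gene transcription, and P/Q- and N-type channels trigger transmitter release. RGK GTPases bind the beta subunit and inhibit high-voltage-activated calcium currents, and Rem2 is known to be induced by neuronal activity.

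RNA was sequenced from primary hippocampal cultures of newborn C57BL/6N mice, in 9 conditions with 5 libraries each, 1 from each of 5 culture preparations (numbers 1, 3, 6, 7 and 8). The authors give day 11 in vitro for the sequenced cells and day 10 or 11 for the culture experiments in general. The cultures were untreated (control) or received bicuculline (Bic, 50 µM), which blocks GABA type A receptors and induces AP firing, for 0.5, 1 or 2 h. In the short protocol (SP), tetrodotoxin (TTX, 1 µM), which ends AP firing, or TTX and NMDA (30 µM) joined Bic after 0.5 h for another 0.5 h. The long protocol (LP) had 1 h of Bic and then a further phase of 1 h in which TTX, TTX/NMDA or TBOA (50 µM) was added. TBOA inhibits glutamate uptake, so that glutamate spills over. The passive effect compares TTX with Bic of the same total time, the active effect TTX/NMDA with TTX, the total effect TTX/NMDA with Bic, and spillover TBOA with 2 h Bic. The cells carried no genetic change named in the labels. They were mixed cultures, given cytosine arabinoside against dividing cells, in which glial transcripts were still measured.

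Each library held 11316580 to 81129276 reads counted on genes (median 26239614). Levels are given as CPM, the counts scaled to a common library size by TMM normalization over the 45 libraries, and differences as log2 fold changes ± SE from edgeR's quasi-likelihood test, called at a Benjamini-Hochberg adjusted p under 0.05 over all genes tested. The 5 pan-neuronal markers (Rbfox3, Tubb3, Map2, Snap25 and Syt1) summed to 4615 to 5514 CPM in the controls, the 6 astrocyte markers to 374 to 689 CPM and the 5 microglial ones to 3.17 to 4.70 CPM. The activity markers Npas4, Fos and Arc were higher after 2 h Bic than in the control, by log2 fold changes of 5.54, 5.39 and 5.23. The muscle markers summed to at most 0.544 CPM in any library. The control library of preparation 3 stood apart, with the lowest level of all 7 pore subunits among the controls and a mean deviation of -0.47 on the log2 scale. The TBOA library of preparation 6 was likewise lowest for all 7, at -0.27, and so were the libraries of preparation 8 after 1 and 2 h Bic, at -0.22 and -0.20. In bulk RNA, fewer cells of a type and less RNA per cell cannot be told apart.

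Start regions are shown for 4 members whose transcripts moved in the comparisons below: Rem2 rose with AP firing, and Cacna1b, Cacna1c and Cacna1e fell with NMDA. For Cacna1c, which has several start regions, the only one that held the half-site named below is shown. Cacna1d, which also fell with NMDA in the LP, held no half-site in its start regions and is not shown. Each sequence runs 5′ to 3′ on the gene's strand from 250 bases before to 50 bases after a RefSeq transcription start (GRCm38.p6). Capitals mark the half-site TGACG of the cAMP response element (CRE), on either strand.
Rem2, chr14:54475850-54476149, plus strand: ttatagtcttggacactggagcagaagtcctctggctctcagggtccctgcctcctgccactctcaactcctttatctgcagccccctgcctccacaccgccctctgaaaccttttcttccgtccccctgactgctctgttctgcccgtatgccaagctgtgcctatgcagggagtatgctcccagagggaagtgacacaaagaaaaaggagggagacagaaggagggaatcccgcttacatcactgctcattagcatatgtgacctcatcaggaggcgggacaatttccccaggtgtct
Cacna1b, chr2:24763103-24763402, minus strand: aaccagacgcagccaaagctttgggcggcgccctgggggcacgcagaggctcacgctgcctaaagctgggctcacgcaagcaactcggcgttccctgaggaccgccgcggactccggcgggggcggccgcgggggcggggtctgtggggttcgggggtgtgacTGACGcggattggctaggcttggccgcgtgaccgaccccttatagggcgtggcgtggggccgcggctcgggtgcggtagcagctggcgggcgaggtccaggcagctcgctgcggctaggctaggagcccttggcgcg
Cacna1c, chr6:119196360-119196659, minus strand: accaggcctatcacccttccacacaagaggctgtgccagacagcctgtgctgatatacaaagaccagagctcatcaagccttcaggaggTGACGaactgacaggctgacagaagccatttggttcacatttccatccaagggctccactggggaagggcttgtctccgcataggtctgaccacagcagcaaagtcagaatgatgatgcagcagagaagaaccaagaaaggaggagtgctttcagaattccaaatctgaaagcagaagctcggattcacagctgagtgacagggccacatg
Cacna1e, chr1:154725871-154726170, minus strand: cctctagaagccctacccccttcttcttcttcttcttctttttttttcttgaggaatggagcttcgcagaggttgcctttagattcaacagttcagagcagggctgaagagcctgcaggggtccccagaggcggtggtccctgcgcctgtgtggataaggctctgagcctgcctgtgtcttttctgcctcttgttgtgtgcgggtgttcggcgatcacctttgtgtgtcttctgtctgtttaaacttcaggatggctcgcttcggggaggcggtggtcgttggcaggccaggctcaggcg

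The RefSeq table held 8 start regions for 5 of the members (3 for Cacna1c, 2 for Cacna1d). Each was searched on both strands for the CRE (TGACGTCA), its half-site (TGACG, which the CRE contains), an AP-1 site (TGANTCA), an Egr site (GCGTGGGCG) and the CArG box of SRF. The half-site occurred in 2 of the 8, those of Cacna1b and Cacna1c printed above, and 20.8% of all 32851 start regions of this length held it. None of the 8 held the letters of the other motifs, which were found in 1.79% (CRE), 7.81% (AP-1), 0.612% (Egr) and 1.63% (CArG) of all start regions. The Rem2 region, 54.7% G and C, and the Cacna1b region, 72.3%, differed widely in base composition. These are matches of letters in a short window and say nothing of factor binding.

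Measured per kilobase of exons, the N-type gene Cacna1b (ENSMUSG00000004113, chr2:24603887-24763152 on GRCm38) had the highest level of the 10 genes in the control, at 23.03 ± 4.22 CPM per kb (SD, n = 5). The P/Q-type gene Cacna1a followed at 14.7 ± 2.85, then Cacna1h at 10.1 ± 1.71, Cacna1e at 8.22 ± 1.82, Cacna1c at 5.76 ± 1.26, Cacna1g at 5.63 ± 0.785, Rem2 at 5.21 ± 1.35 and Cacna1d at 3.97 ± 0.673 CPM per kb. Each of these neighbours in the order overlapped in its 5 libraries, so that their ranks are not separated by the spread. Gem, at 1.15 ± 0.172, and Rrad, at 0.177 ± 0.077 CPM per kb, lay below without overlap. With LP TTX/NMDA the order was different: Cacna1b (16.8 ± 1.198) and Cacna1a (13.3 ± 1.08) still led, Rem2 came next at 9.12 ± 1.06, and Gem at 4.66 ± 0.679 CPM per kb overlapped the R-type gene Cacna1e at 4.91 ± 0.887. The reads behind a value numbered 591 to 22153 per library for the pore subunits, 108 to 1927 for Rem2, 26 to 642 for Gem and only 3 to 54 for Rrad, whose counting error is the largest of the 10.

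AP firing raised all 3 RGK transcripts. Rem2 (ENSMUSG00000022176, chr14:54476100-54480431) had levels of 9.40, 11.6, 9.47, 11.3 and 16.9 CPM in the controls of preparations 1, 3, 6, 7 and 8, in this order, 16.9, 16.4, 15.9, 17.2 and 25.04 CPM after 1 h Bic and 28.9, 30.7, 24.7, 23.3 and 35.3 CPM after 2 h Bic. The groups of the control and 2 h Bic did not overlap, and preparation 8 was the highest in all 9 conditions. The mean rose from 11.7 ± 3.05 CPM to 13.9 ± 1.51, 18.3 ± 3.80 and 28.6 ± 4.81 CPM after 0.5, 1 and 2 h (SD, n = 5). Against the control the log2 fold change was 0.25 ± 0.12 after 0.5 h (adjusted p = 0.84), 0.63 ± 0.13 after 1 h (adjusted p = 0.0024) and 1.27 ± 0.12 after 2 h (adjusted p = 7.8e-10), a 2.41-fold increase. With filterByExpr the call after 1 h was lost (adjusted p = 0.075). From 1 to 2 h Rem2 rose further by 0.64 ± 0.11 (adjusted p = 6.5e-05), in 5 of 5 preparations. Its step from 0.5 to 1 h, 0.38 ± 0.11, was called with the preparation as a block (the paired fit, adjusted p = 0.013) and without preparation 3 (adjusted p = 0.028) but not in the unpaired fit (adjusted p = 0.075).

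Gem (ENSMUSG00000028214, chr4:11704457-11714752), another RGK GTPase, was a low-level transcript with 2.26, 3.04, 2.16, 2.42 and 2.19 CPM in the 5 controls. It had 3.84, 4.62, 4.48, 5.45 and 3.77 CPM after 1 h and 5.56, 6.61, 5.31, 8.22 and 5.83 CPM after 2 h Bic, in each case without overlap with the controls. Gem was higher by 0.88 ± 0.16 after 1 h (adjusted p = 0.00042) and by 1.37 ± 0.15 after 2 h (adjusted p = 1.6e-08), a 2.59-fold increase. The steps from 0.5 to 1 h (0.60 ± 0.16, adjusted p = 0.049) and from 1 to 2 h (0.49 ± 0.14, adjusted p = 0.02) were higher in 5 of 5 preparations but close to the threshold. The earlier step was lost without preparation 1, 3, 6 or 7 (adjusted p = 0.078, 0.07, 0.063 and 0.88), and the later one without preparation 1 or 7 (adjusted p = 0.057 and 0.067) and by plain library totals (adjusted p = 0.051). The earlier step was also lost with RLE factors, filterByExpr, library totals and all 45 libraries in 1 fit (adjusted p = 0.065, 0.099, 0.1 and 0.11).

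Rrad (ENSMUSG00000031880, chr8:104628070-104631327), known from heart and skeletal muscle, was near the limit of detection at 0.261, 0.317, 0.172, 0.18 and 0.468 CPM in the controls, and reached 1.45, 1.18, 0.915, 0.613 and 1.64 CPM after 2 h Bic. These ranges did not overlap, and the log2 fold change was 2.10 ± 0.33 (adjusted p = 1.5e-05). After 1 h Bic, 1 library (preparation 8, 1.38 CPM) lay far above the other 4, which ranged from 0.348 to 0.614 CPM, and no difference from the control was called (adjusted p = 0.32). The step from 1 to 2 h, 0.96 ± 0.31, was not called in the unpaired fit (adjusted p = 0.073), and was called in the paired fit (adjusted p = 0.012) and without preparation 7 or 8 (adjusted p = 0.017 and 0.0021). The fourth RGK gene, Rem1, had at most 3 reads in any library.

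**Figure D1:**
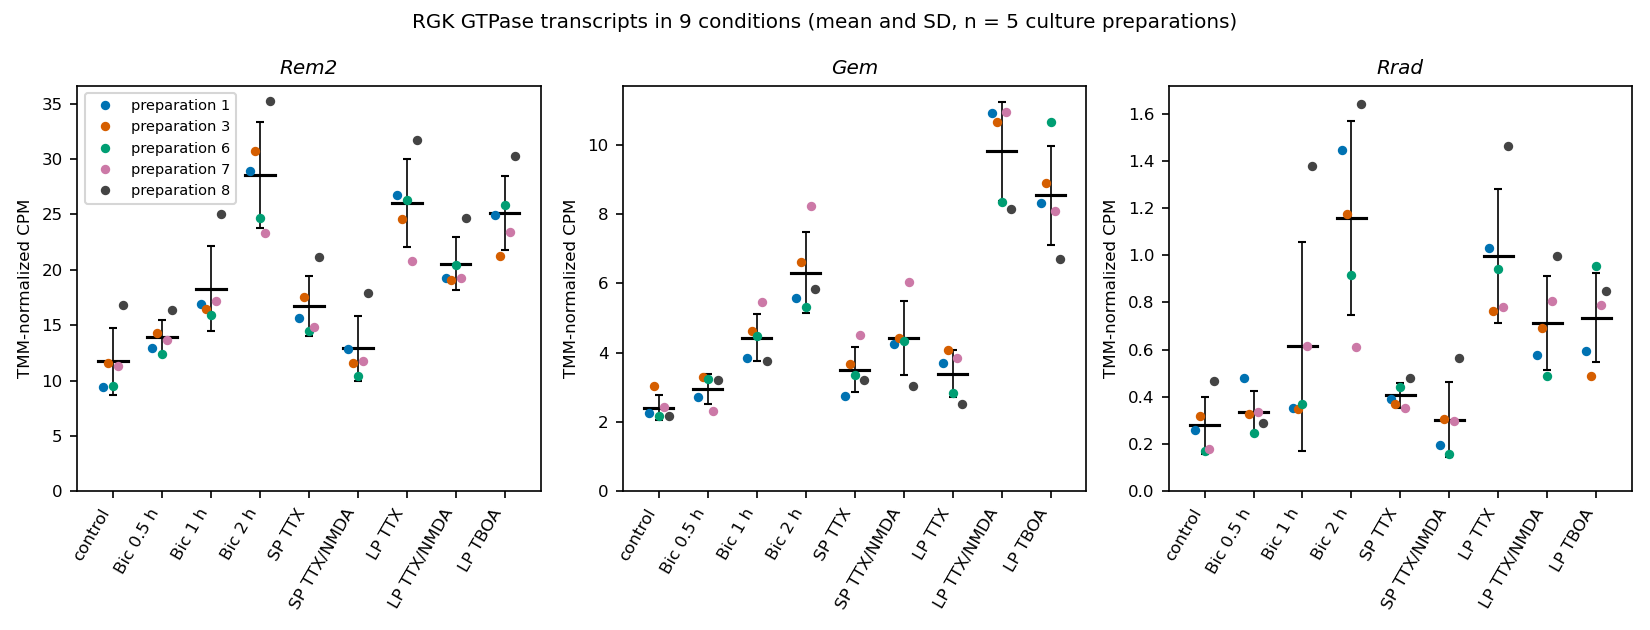
Levels of Rem2, Gem and Rrad (TMM-normalized CPM, linear axes from 0) in the 9 conditions; points are the 5 culture preparations, horizontal lines the mean and whiskers the SD. Rem2 and Rrad are highest after 2 h Bic, at means of 28.6 and 1.16 CPM, whereas Gem is highest with LP TTX/NMDA, at 9.80 CPM.

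AP firing changed the pore subunits little. After 2 h Bic the L-type gene Cacna1d and the T-type genes Cacna1g and Cacna1h were higher than in the control, by 0.31 ± 0.094 (adjusted p = 0.032), 0.37 ± 0.089 (adjusted p = 0.004) and 0.33 ± 0.10 (adjusted p = 0.023), each in 5 of 5 preparations. The other 4 subunits had log2 fold changes of 0.15 (Cacna1b, 95% interval -0.041 to 0.35) to 0.21 (Cacna1a, 0.0024 to 0.42) and were not called. Cacna1g (ENSMUSG00000020866) had 64.5, 48.6, 66.3, 54.7 and 51.1 CPM in the controls and 74.3, 83.4, 80.7, 69.0 and 64.5 CPM after 2 h Bic, with overlapping ranges. Without preparation 3, whose control library stood apart, Cacna1d (0.20, adjusted p = 0.13) and Cacna1h (0.19, adjusted p = 0.17) had smaller log2 fold changes and were no longer called. Both were also lost with filterByExpr (adjusted p = 0.053 and 0.051) and by plain library totals (adjusted p = 0.12 and 0.076). From 1 to 2 h Cacna1g alone among the subunits passed the paired fit (0.19, adjusted p = 0.0028), against an adjusted p of 0.22 in the unpaired one.

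In counts, 6 of the 10 members were called after 2 h Bic, all higher, when 9.02% of the 30929 genes tested and 18.6% of the 13592 genes with a mean of at least 1 CPM were called in either direction. After 1 h Bic 2 of 10 were called, Rem2 and Gem, beside 1.16% of 30765 genes. After 0.5 h none of the 10 was called by edgeR or DESeq2, 3 having an unadjusted p under 0.05, beside 0.289% of 30133 genes. Cacna1d had an adjusted p of 0.12 after 1 h. It was called there with all 45 libraries in 1 fit (adjusted p = 0.031) and without preparation 6 or 8 (adjusted p = 0.048 and 0.02). Between 0.5 and 1 h 1 member was called (0.677% of 30267 genes) and between 1 and 2 h 2 members (5.33% of 30975 genes). The Bic comparisons share their libraries and are not independent of each other. The median log2 fold change of the 7 pore subunits after 2 h was 0.21, beside -0.002 for the expressed genes. The lowest value of a subunit over the alternative settings ranged from 0.040 (Cacna1b) to 0.28 (Cacna1g).

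When AP firing was ended after 1 h of Bic, Gem was lower than after 2 h of Bic: its 5 LP TTX libraries had 3.69, 4.09, 2.82, 3.85 and 2.52 CPM, all below those of 2 h Bic. The LP passive effect on Gem was -0.89 ± 0.15 (adjusted p = 0.00011), a decrease of 46.1% in 5 of 5 preparations. Rem2, in contrast, had 26.7, 24.6, 26.3, 20.8 and 31.7 CPM with LP TTX, overlapping the range of 2 h Bic, a log2 fold change of -0.14 (95% interval -0.34 to 0.059, adjusted p = 0.53), which passed in the paired fit (adjusted p = 0.042). Rrad had a passive log2 fold change of -0.20 (95% interval -0.70 to 0.30). That the passive effect differs between Gem and Rem2 was not tested.

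Gem was higher when NMDA was added to TTX. Its levels with LP TTX/NMDA were 10.9, 10.7, 8.35, 10.9 and 8.14 CPM, the highest of any condition by the mean and, in each preparation, more than in LP TTX. The LP active effect on Gem was 1.51 ± 0.14 (adjusted p = 1.2e-09), a 2.85-fold increase, and the total effect over 2 h Bic was 0.63 ± 0.13 (adjusted p = 0.00025), with 5 of 5 preparations higher. In the SP, Gem had 2.76, 3.68, 3.36, 4.50 and 3.20 CPM with TTX and 4.25, 4.41, 4.34, 6.05 and 3.05 CPM with TTX/NMDA, and an active effect of 0.34 ± 0.16 that was not called (adjusted p = 0.31). The active effect was larger in the LP than in the SP by 1.18 ± 0.22 (interaction, adjusted p = 0.00064). The passive effect of the SP, -0.37 ± 0.15, was lower in 5 of 5 preparations and not called (adjusted p = 0.88), and its difference from the LP, -0.52 ± 0.21, passed only in the paired fit (adjusted p = 0.038, against 0.78).

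Rem2 moved the other way. With LP TTX/NMDA it had 19.2, 19.1, 20.4, 19.3 and 24.7 CPM, lower than with TTX in 5 of 5 preparations, an active effect of -0.35 ± 0.10 (adjusted p = 0.0091) and a total effect of -0.48 ± 0.10 (adjusted p = 0.00021). In the SP the active effect was -0.38 ± 0.12, lower in 5 of 5 preparations, called in the paired fit (adjusted p = 0.0049) and without preparation 8 (adjusted p = 0.0021) but not in the unpaired fit (adjusted p = 0.069). The SP total effect was -0.49 ± 0.12 (adjusted p = 0.013), with a level of 12.9 ± 2.95 CPM, beside 11.7 ± 3.05 in the control. That call was lost with filterByExpr (-0.50, adjusted p = 0.057). Scaled by plain library totals, the LP active fall of Rem2 was -0.17 and not called (adjusted p = 0.23), and with all 45 libraries in 1 fit it had an adjusted p of 0.051. Rrad had an LP active effect of -0.45 (95% interval -0.95 to 0.049, adjusted p = 0.21) and an LP total effect of -0.65, which passed in the paired fit (adjusted p = 0.018) and without preparation 7 (adjusted p = 0.016) but not in the unpaired fit (adjusted p = 0.067).

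NMDA lowered most pore subunits, with the largest values for the R-type gene Cacna1e and the L-type gene Cacna1c. Cacna1e (ENSMUSG00000004110, chr1:154390731-154884501), the R-type subunit, had 256, 219.7, 264, 232 and 260.4 CPM with LP TTX and 111, 134, 123, 96.5 and 155 CPM with LP TTX/NMDA. The ranges did not overlap, and the level fell by 50.1%, a log2 fold change of -1.002 ± 0.089 (adjusted p = 6.3e-10). In the SP, Cacna1e had 262, 202, 191, 236 and 242 CPM with TTX and 184, 150.2, 167, 134 and 188 CPM with TTX/NMDA, again without overlap, and fell by 27.7% (-0.47 ± 0.087, adjusted p = 0.00058). Cacna1c (ENSMUSG00000051331, chr6:118587240-119196418), the principal L-type subunit of the brain, had 138, 131, 133, 126 and 129 CPM with LP TTX and 66.2, 77.1, 76.6, 70.4 and 80.1 CPM with LP TTX/NMDA. It fell by 43.97% in the LP (-0.84 ± 0.066, adjusted p = 7.5e-11) and by 29.8% in the SP (-0.51 ± 0.065, adjusted p = 1.3e-06), in 5 of 5 preparations each time.

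The N-type gene Cacna1b had 253, 251, 252, 249.7 and 241 CPM with LP TTX, within a narrow range, and 151, 175, 171, 157 and 178 CPM with LP TTX/NMDA. It fell by 0.59 ± 0.064 on the log2 scale in the LP (adjusted p = 2.8e-08) and by 0.29 ± 0.063 in the SP (adjusted p = 0.0031). The other L-type gene, Cacna1d, was lower by 22.99% in the LP (-0.38 ± 0.075, adjusted p = 0.00028), and its SP active effect of -0.20 was called in the paired fit (adjusted p = 0.04) and by DESeq2 (adjusted p = 0.041) but not in the unpaired edgeR fit (adjusted p = 0.12). The P/Q-type gene Cacna1a had the smallest called LP fall, -0.23 ± 0.068 (adjusted p = 0.014), with overlapping ranges of 167 to 189 and 137 to 168 CPM. It was not called without preparation 1 (adjusted p = 0.11), with all 45 libraries in 1 fit (adjusted p = 0.097) or by plain library totals (-0.050, adjusted p = 0.6).

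Of the T-type genes, Cacna1h fell in the LP by 22.7% (-0.37 ± 0.077, adjusted p = 0.00043), from 121, 121, 99.5, 101 and 95.3 to 81.9, 92.2, 88.1, 82.1 and 72.7 CPM, without overlap, and was not called by plain library totals (-0.20, adjusted p = 0.057). Cacna1g had 73.9, 71.2, 54.4, 55.5 and 62.0 CPM with LP TTX and 61.0, 71.3, 71.7, 60.04 and 54.0 CPM with LP TTX/NMDA, a log2 fold change of -0.0045 whose 95% interval, -0.18 to 0.17, does not reach the value of Cacna1h. By plain library totals, which moved the median of the expressed genes from -0.011 to 0.17 in this comparison, its log2 fold change was 0.17 (adjusted p = 0.17). Whether the effects on these genes differ was not itself tested. The mean of Cacna1g with SP TTX/NMDA, 66.2 ± 4.397 CPM, was also within the spread of that with SP TTX, 62.4 ± 5.67 CPM.

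In the LP active comparison 8 of the 10 members were called, 7 lower and Gem higher, beside 23.3% of the 32852 genes tested and 46.9% of the expressed genes in either direction. In the SP active comparison 3 of 10 were called (Cacna1b, Cacna1c and Cacna1e, all lower), beside 4.28% of 32229 genes tested and 9.54% of the expressed ones. The median log2 fold change of the 7 subunits was -0.38 in the LP and -0.20 in the SP, beside -0.011 and 0.014 for the expressed genes. The falls of Cacna1c and Cacna1e were larger in the LP than in the SP, by -0.31 ± 0.087 (interaction, adjusted p = 0.044) and -0.52 ± 0.14 (adjusted p = 0.034). With Gem, 3 of 10 members were called in that interaction, beside 2.57% of 35027 genes. For Cacna1c the interaction was lost on leaving out any preparation (adjusted p = 0.18, 0.14, 0.11, 0.099 and 0.05 without 1, 3, 6, 7 and 8), and for Cacna1e without preparation 1 or 6 (adjusted p = 0.11 and 0.16). Both were also lost by plain library totals (adjusted p = 0.19 and 0.1) and with all 45 libraries in 1 fit (adjusted p = 0.22 and 0.073), and that of Cacna1e with filterByExpr (adjusted p = 0.05). For Cacna1b it was called in the paired fit (-0.29, adjusted p = 0.0039), with filterByExpr (adjusted p = 0.014) and by DESeq2 (adjusted p = 0.0018). The unpaired edgeR fit without that filter did not call it (adjusted p = 0.056). In the passive interaction the unpaired fit called none of the 10, with 1 at an unadjusted p under 0.05, beside 0.256% of 34313 genes called. The paired fit called Gem there (adjusted p = 0.038).

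**Figure D2:**
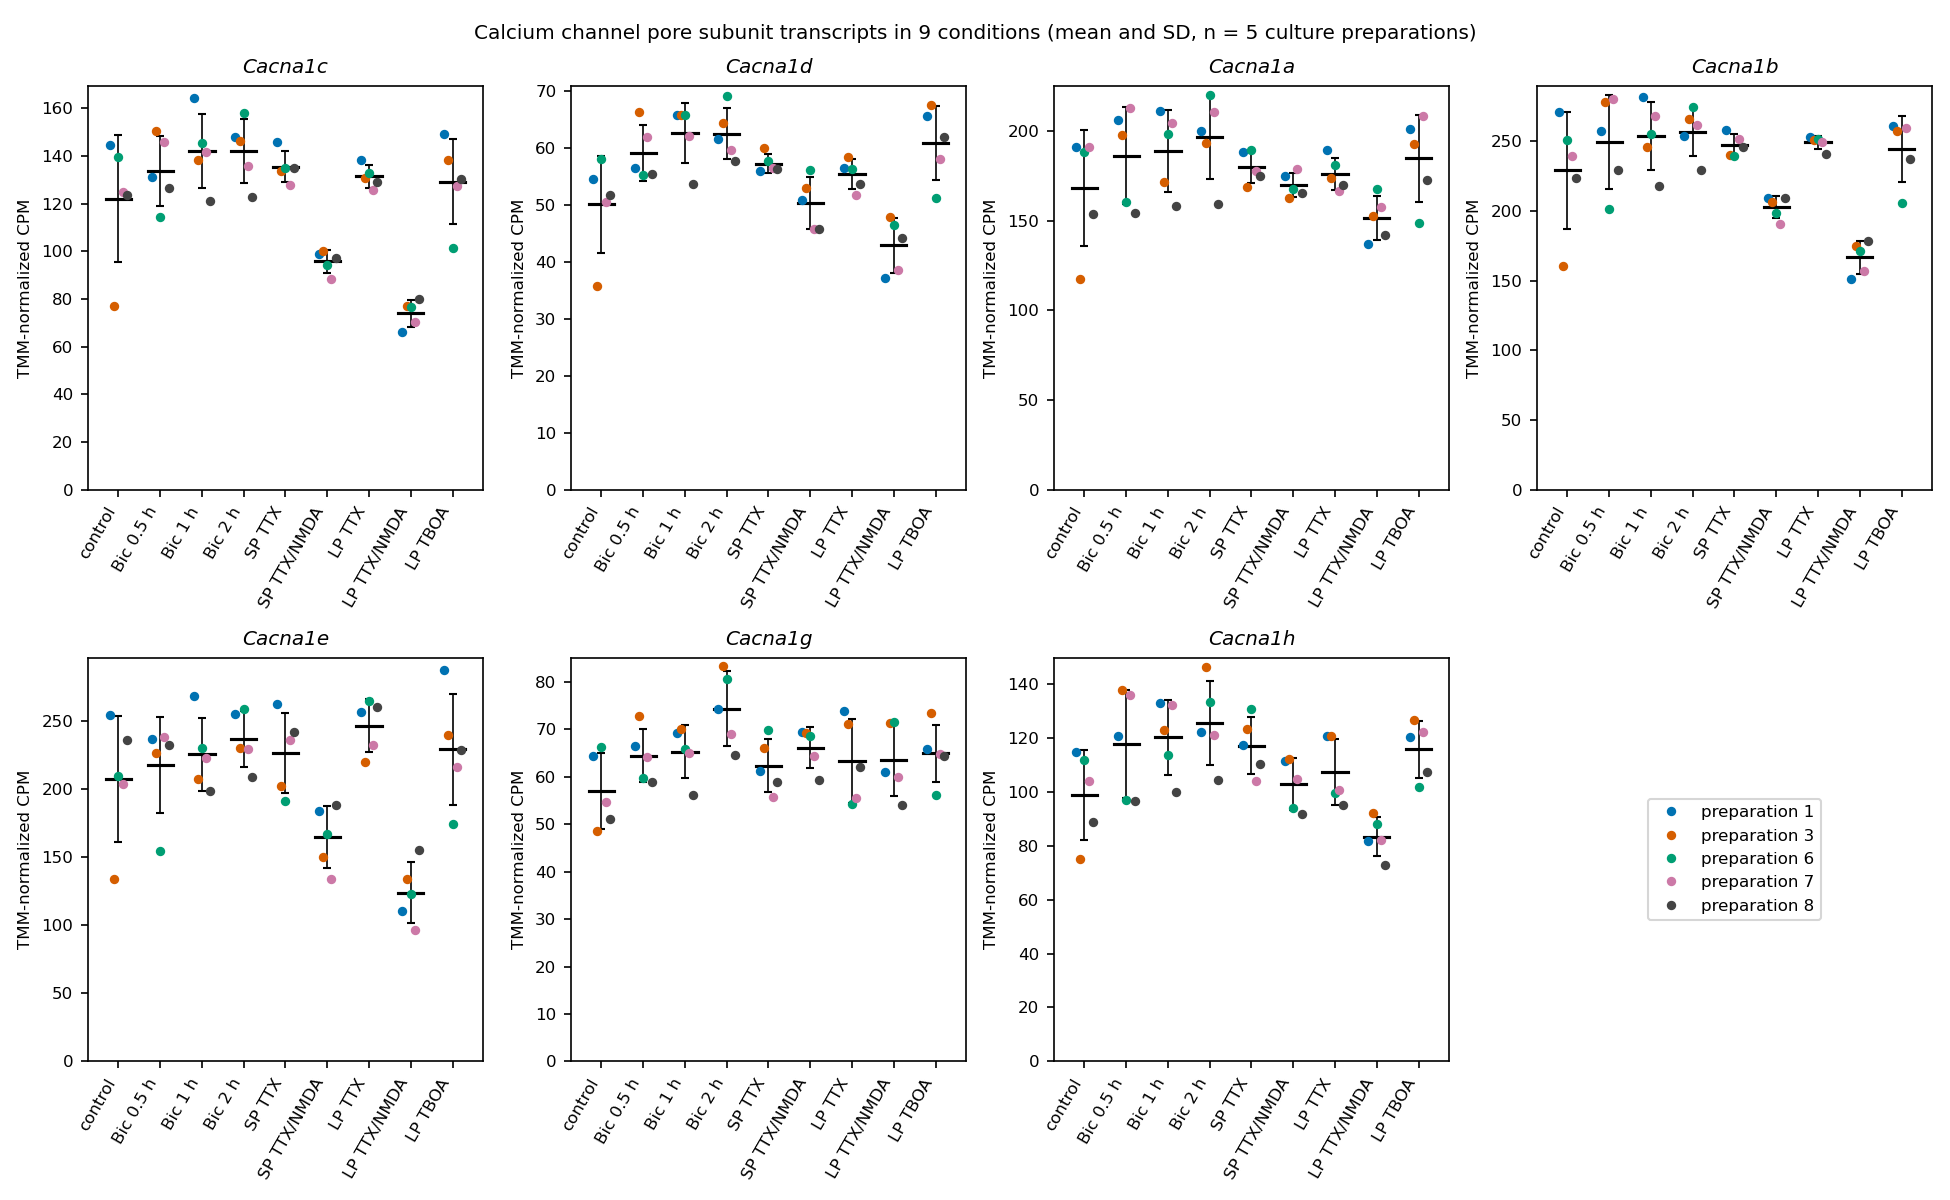
Levels of the 7 pore subunits (TMM-normalized CPM, linear axes from 0) in the 9 conditions, with the 5 preparations as points, the mean as a horizontal line and the SD as whiskers. Cacna1e reaches its lowest mean, 124 CPM, with LP TTX/NMDA, and Cacna1g has similar means with LP TTX (63.4 CPM) and LP TTX/NMDA (63.6 CPM).

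Ending AP firing alone had small effects on the pore subunits. In the LP passive comparison only Gem among the 10 members was called by the unpaired fit, beside 4.65% of 31944 genes. In the paired fit 7 members were lower, beside 32% of 15570 genes, with Cacna1a (-0.17, adjusted p = 0.014), Cacna1c (-0.13, adjusted p = 0.032), Cacna1d (-0.19, adjusted p = 0.0026), Cacna1g (-0.25, adjusted p = 0.0034) and Cacna1h (-0.24, adjusted p = 0.00097) beside Rem2 and Gem. Cacna1d also passed by DESeq2 (adjusted p = 0.02) and with edgeR's filterByExpr (adjusted p = 0.043). Cacna1b (-0.053) and Cacna1e (0.051), of which the latter fell most with NMDA, passed in neither. Without preparation 8, whose 2 h Bic library stood apart, the unpaired fit also called Cacna1a, Cacna1g and Cacna1h (adjusted p = 0.032, 0.014 and 0.017), and without preparation 1 it called Cacna1g (adjusted p = 0.047). In the SP passive comparison none of the 10 was called by edgeR, paired or not, or by DESeq2, 1 had an unadjusted p under 0.05, and 0.268% of 31765 genes were called.

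Against Bic of the same duration, all 7 pore subunits were called lower with TTX/NMDA in the LP, although the call of Cacna1g depended on the processing. The LP total log2 fold change ranged from -0.96 (Cacna1c, adjusted p = 4.6e-12) and -0.95 (Cacna1e, adjusted p = 2.3e-10) to -0.24 (Cacna1g, adjusted p = 0.028), with 9 of 10 members called beside 22.8% of 32243 genes tested and 45.3% of the expressed ones. For Cacna1g the call was lost without preparation 1, 3 or 7 (adjusted p = 0.12, 0.077 and 0.051), with filterByExpr (adjusted p = 0.063), with all 45 libraries in 1 fit (adjusted p = 0.058) and by plain library totals (-0.047, adjusted p = 0.68). The summed level of the 7 subunits was 1095 ± 91.5 CPM after 2 h Bic, 1029 ± 38.96 with LP TTX and 706 ± 48.8 with LP TTX/NMDA (SD, n = 5). In the SP total comparison 5 of 10 were called, all lower (Cacna1b, Cacna1c, Cacna1d, Cacna1e and Rem2), beside 4.3% of 31414 genes tested and 9.38% of the expressed ones. The paired fit, from which Rrad was filtered, called 7 of the other 9, beside 27.3% of 15435 genes, adding Cacna1a (-0.16, adjusted p = 0.033) and Cacna1h (-0.23, adjusted p = 0.0015), the latter also called without preparation 8 (adjusted p = 0.014). Gem had an SP total effect of -0.017 (95% interval -0.33 to 0.29). The passive, active and total comparisons share libraries, so their values for a gene are not independent.

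**Figure D3:**
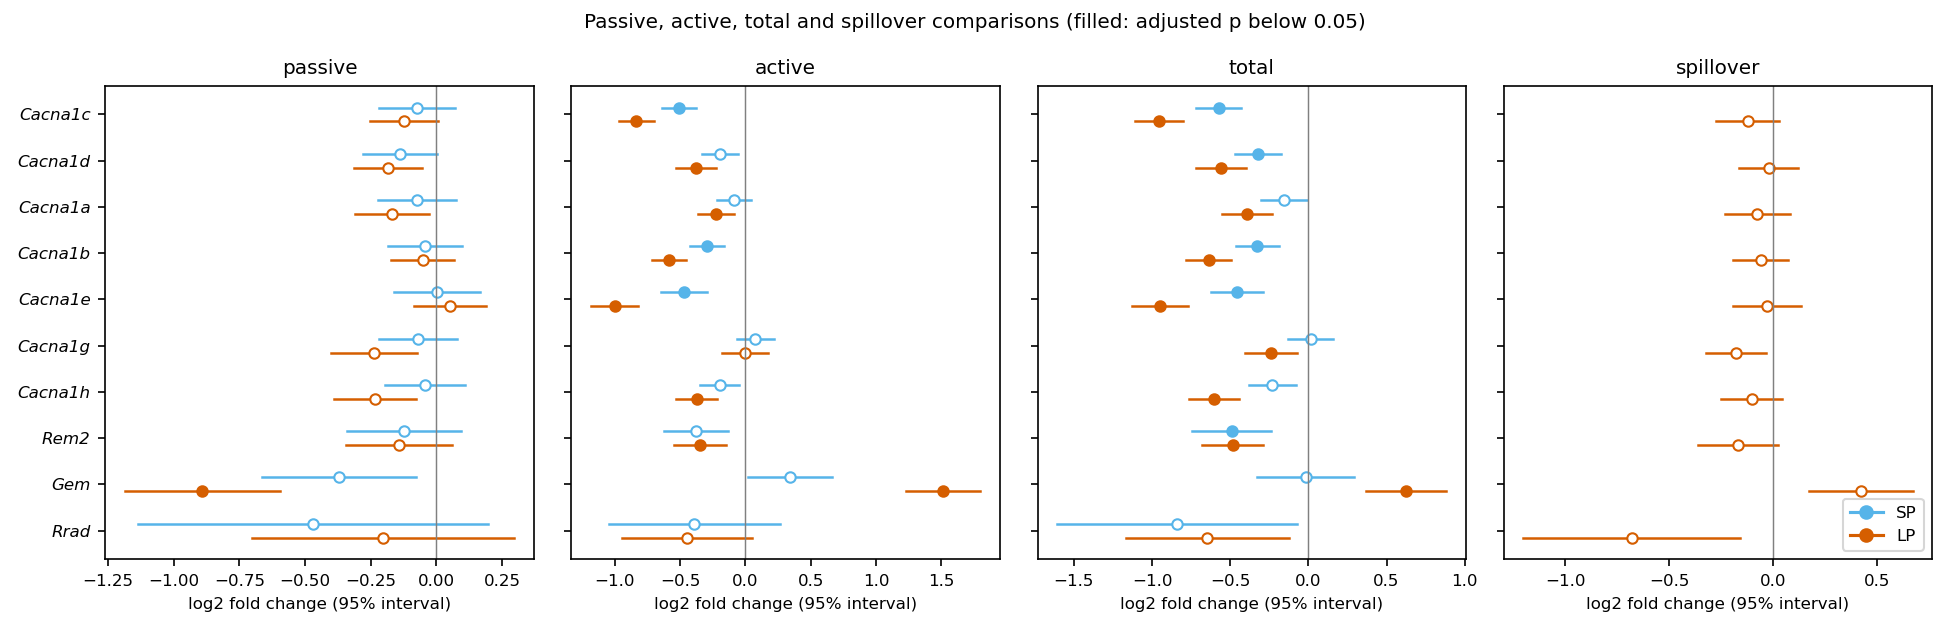
Log2 fold changes of the 10 members with 95% intervals in the passive, active and total comparisons of the SP and LP and in the spillover comparison; filled points passed the test. Gem lies at -0.89 in the LP passive and 1.51 in the LP active panel, while Cacna1c and Cacna1e lie near 0 in the passive and at -0.84 and -1.002 in the active panel.

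Cell type markers moved in the same libraries. From LP TTX to LP TTX/NMDA the summed astrocyte markers moved from between 389 and 805 CPM over the 5 libraries to between 688 and 1429 CPM, with 6 of 6 called higher. The 3 glutamatergic markers (Slc17a7, Neurod6 and Prox1) moved from between 1186 and 1397 CPM to between 622 and 854 CPM, with 3 of 3 called lower. Of the 5 pan-neuronal markers, which summed to values between 5450.1 and 5856 CPM with LP TTX and between 4546 and 4884 CPM, 2 were called lower (Map2 by 0.59 ± 0.077 and Syt1 by 0.24 ± 0.064 on the log2 scale), while Rbfox3 and Tubb3 had log2 fold changes of 0.073 and 0.012. The 3 GABAergic markers had sums between 1414 and 2067 CPM and between 1565 and 2302 CPM, and Slc32a1 was called higher. Oligodendrocyte lineage markers were called higher in 4 of 6 cases and fibroblast markers in 3 of 3, with sums of 55.03 to 121 and 65.7 to 137 CPM in LP TTX/NMDA. Microglial markers summed to 3.73 to 5.76 CPM there, with 1 of 5 called higher, endothelial and mural markers to 20.5 to 24.8 CPM, with 2 of 5 called higher, and muscle markers to 0.348 to 0.536 CPM, with 1 of 4 called higher. Cldn5, Actc1 and Ckm were at 0 in 27, 29 and 35 of the 45 libraries. In the SP the glutamatergic sum was between 1228 and 1542 CPM with TTX and between 878 and 1145 CPM with TTX/NMDA, with 3 of 3 called lower. There Map2 was the 1 of 5 pan-neuronal markers called lower (-0.34 ± 0.074), and 2 of 3 GABAergic markers were called higher, Gad1 (0.39 ± 0.089) and Slc32a1 (0.29 ± 0.079). The astrocyte sum was between 439 and 986 CPM and between 439 and 882 CPM there, with none of the 6 called. The part of these shifts in the falls of the pore subunits and the rise of Gem was not tested.

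**Figure D4:**
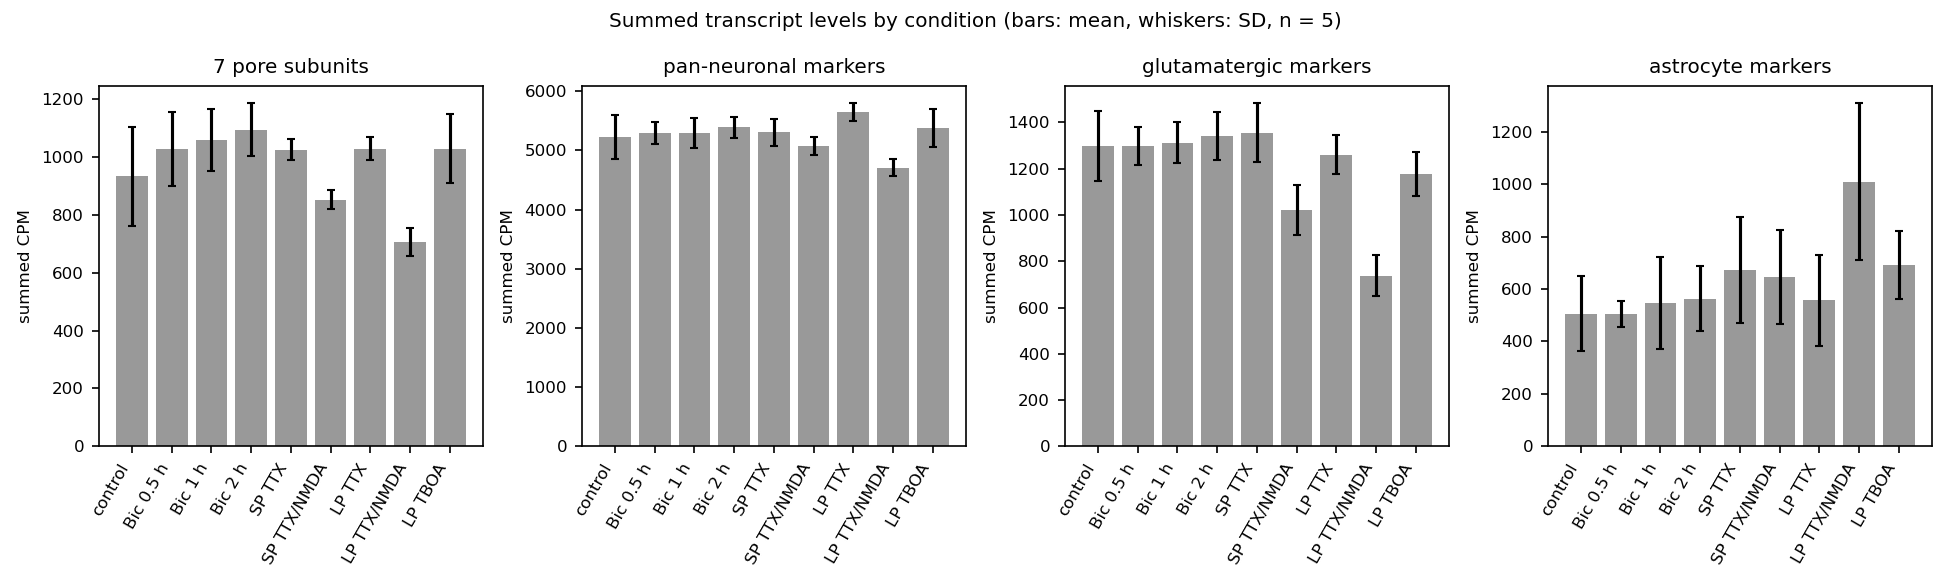
Summed levels (CPM, axes from 0) of the 7 pore subunits and of the pan-neuronal, glutamatergic and astrocyte markers in the 9 conditions, as means with SD (n = 5). With LP TTX/NMDA the pore subunits sum to 706 CPM and the glutamatergic markers to 738 CPM, their lowest means, and the astrocyte markers to 1009 CPM, their highest.

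The members differ widely in genomic span, and the 2 pore subunits with the largest active falls are the longest. Cacna1c spans 609 kb, Cacna1e 494 kb, Cacna1d 452 kb, Cacna1a 252 kb and Cacna1b 159 kb, against 65.8 kb for Cacna1g, 59.5 kb for Cacna1h, 10.3 kb for Gem, 4.33 kb for Rem2 and 3.26 kb for Rrad. Over the 7 subunits the span and the LP active log2 fold change had a Spearman's rho of -0.71, and the SP one a rho of -0.61, as a description over 7 genes of the same libraries. Over 12708 expressed protein-coding genes the rho was -0.31 in the LP and -0.33 in the SP. Of the 511 such genes of 300 kb or more, 57.7% were called lower in the LP active comparison, with a median of -0.31, and of the 2782 genes under 10 kb 12.5% were, with a median of 0.15. Cacna1c and Cacna1e, at -0.84 and -1.002, lay below the median of their length class, as did Cacna1b, at -0.59 beside -0.17 for genes of 100 to 300 kb. Cacna1g had -0.0045 and Cacna1h -0.37 beside a median of -0.095 for genes of 30 to 100 kb. Rem2, under 10 kb, had -0.35 beside its class median of 0.15, and Cacna1d, of 300 kb or more, had -0.38, near its class median. Gene length was not separated from other properties of these genes.

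**Figure D5:**
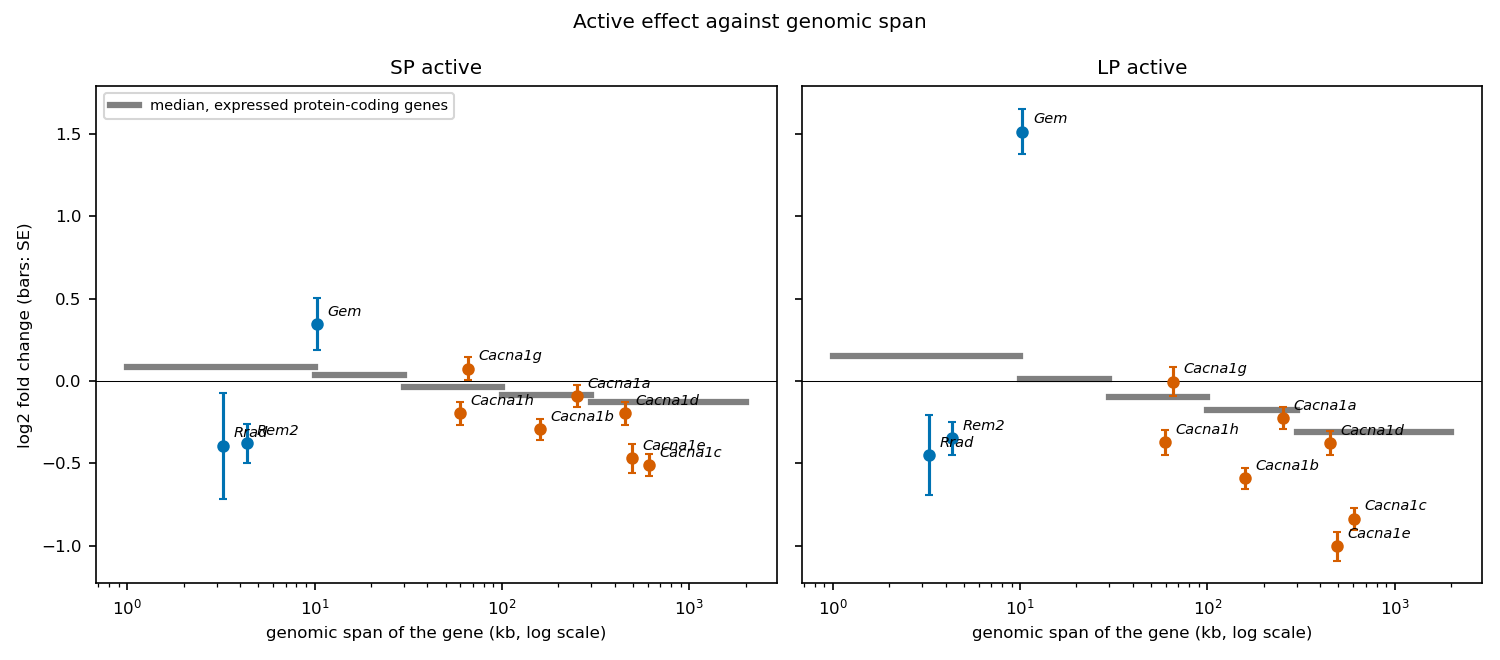
Active log2 fold change (SE bars) of the 10 members against the genomic span of the gene (log axis) in the SP and LP; orange, pore subunits; blue, RGK GTPases; grey segments, medians of expressed protein-coding genes by length class. The grey medians run from 0.15 under 10 kb to -0.31 at 300 kb or more in the LP, with Cacna1e at -1.002 and Gem at 1.51.

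Glutamate spillover with TBOA was studied without TTX, and none of the 10 members was called against 2 h Bic by edgeR, paired or not. DESeq2, which gave no adjusted p for Rrad here, called none of the other 9, and edgeR gave 3 at an unadjusted p under 0.05, beside 0.602% of 31706 genes called. Cacna1e had 287, 239.9, 174, 216 and 229 CPM with TBOA, a log2 fold change of -0.031 with a 95% interval of -0.20 to 0.13, far from the LP total value of -0.95. Cacna1c likewise had -0.12 (95% interval -0.27 to 0.030). Gem had the lowest p of the 10, with 8.32, 8.89, 10.7, 8.10 and 6.71 CPM and a log2 fold change of 0.42 ± 0.12 (adjusted p = 0.15), higher in 4 of 5 preparations. It was called without preparation 7 (adjusted p = 0.021) or 8 (adjusted p = 0.0093). Compared directly with LP TTX/NMDA, TBOA cultures had higher levels of 7 of 10 members (Cacna1a, Cacna1b, Cacna1c, Cacna1d, Cacna1e, Cacna1h and Rem2), from 0.30 ± 0.082 (Cacna1a, adjusted p = 0.0097) to 0.90 ± 0.10 (Cacna1e, adjusted p = 2.4e-08). In either direction 16.6% of 32684 genes tested and 4536 of the 13592 expressed genes were called there. Without preparation 1 the calls of Cacna1a and Rem2 were lost (adjusted p = 0.098 and 0.1). By plain library totals they were lost too, at 0.15 for Cacna1a (adjusted p = 0.14) and 0.16 for Rem2 (adjusted p = 0.27), and that of Rem2 also with all 45 libraries in 1 fit (adjusted p = 0.14). Gem differed by -0.22 (95% interval -0.46 to 0.020) and was not called (adjusted p = 0.23), though it was by plain library totals (-0.36, adjusted p = 0.029). The astrocyte markers were lower and the glutamatergic markers higher with TBOA than with LP TTX/NMDA in all cases (6 of 6 and 3 of 3), and their part in these differences was not tested.

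Relative to untreated cultures, RGK transcripts were higher and 3 pore subunits lower after LP TTX/NMDA. Gem was 4.04-fold higher (2.02 ± 0.15, adjusted p = 1.7e-13), Rem2 1.74-fold (0.80 ± 0.12, adjusted p = 4.4e-06) and Rrad 2.76-fold (1.46 ± 0.33, adjusted p = 0.0012), all without overlap with the controls. Cacna1e (-0.75 ± 0.12, adjusted p = 8.5e-06), Cacna1c (-0.72 ± 0.11, adjusted p = 3.6e-06) and Cacna1b (-0.46 ± 0.10, adjusted p = 0.00062) were lower, in 4 of 5 preparations, the exception being preparation 3 with its low control. These 6 called members stood beside 19.5% of 32092 genes tested and 5008 of the 13592 expressed genes. Without preparation 3, Cacna1a, Cacna1d and Cacna1h were also called lower (adjusted p = 0.021, 0.0013 and 0.00086). After SP TTX/NMDA only Gem differed from the control (0.86 ± 0.17, adjusted p = 0.0029), 1 of 10 beside 1.27% of 31304 genes. Without preparation 3 Cacna1b, Cacna1c and Cacna1e were called lower there as well (adjusted p = 0.028, 3.1e-05 and 0.0018), without preparation 8 Cacna1c and Cacna1e were (adjusted p = 0.02 and 0.031), and in the paired fit Cacna1e was (-0.33, adjusted p = 0.041).

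The rest of the channel complex was described by a list of 22 other genes: 3 pore subunits, 5 alpha2delta genes, 4 beta subunits, 2 gamma subunits, Rem1 and 7 adaptors or calcium sensors. In the LP active comparison 9 of the 22 were lower and 1 was higher. In either direction 23.3% of all genes tested and 46.9% of the expressed genes were called, so the count in either direction does not set the list apart. Lower alone were 3654 of the 13592 expressed genes, and a difference from the list in that direction was not tested. The list had a median log2 fold change of -0.12, beside -0.011 for the expressed genes. The beta subunits, which carry the channel to the membrane and are the RGK binding partners, fell in 3 of 4 cases: Cacnb2 by 0.76 ± 0.10 (adjusted p = 7.9e-07), Cacnb1 by 0.45 ± 0.063 (adjusted p = 2.4e-06) and Cacnb4 by 0.40 ± 0.090 on the log2 scale (adjusted p = 0.0012). Cacnb3, with 151 CPM in LP TTX and 141 in LP TTX/NMDA, was not called (adjusted p = 0.37). Of the alpha2delta genes, Cacna2d1 (-0.61 ± 0.082, adjusted p = 1.1e-06), Cacna2d3 (-0.48 ± 0.068, adjusted p = 3e-06) and the related Cachd1 (-0.61 ± 0.076, adjusted p = 2.8e-07) were lower, and Cacna2d2 was not called (54.98 and 55.4 CPM).

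The remaining T-type gene, Cacna1i, was lower by 19.6% (-0.32 ± 0.084, adjusted p = 0.0055), and so was the calmodulin gene Calm3 (-0.24 ± 0.071, adjusted p = 0.014), which encodes a calcium sensor bound to these channels. The gene that was higher was Stac3, an adaptor of L-type channels best known from skeletal muscle. It had 1.72, 1.59, 1.43, 1.34 and 1.52 CPM with LP TTX and 2.77, 4.38, 3.69, 2.59 and 3.65 CPM with LP TTX/NMDA, ranges that did not overlap, and a log2 fold change of 1.17 ± 0.17 (adjusted p = 3.4e-06). The genes named for the SP comparisons and the LP passive one were chosen after their values were seen. In the SP active comparison 1 of the 22 was higher, again Stac3 (0.81 ± 0.18, adjusted p = 0.0039), and 3 were lower, beside 4.28% of all genes tested and 9.54% of the expressed ones, namely Cachd1 (-0.48 ± 0.072, adjusted p = 2.8e-05), Cacnb2 (-0.31 ± 0.075, adjusted p = 0.0097) and Cacna2d1 (-0.25 ± 0.072, adjusted p = 0.042). The SP total comparison called 2, Cachd1 (-0.45 ± 0.077) and Cacnb2 (-0.38 ± 0.082), both lower, beside 4.3% of all genes tested and 9.38% of the expressed ones. In the LP total comparison 22.8% of all genes tested and 45.3% of the expressed genes were called in either direction. Lower alone were 3411 of the 13592 expressed genes. Of the list 9 were lower and 1 was higher (Stac3, 0.91 ± 0.18), in either direction a share like that of the expressed genes. Among the lower ones were Cacna1i (-0.49), Cacna2d1 (-0.43), Cacna2d3 (-0.49), Cachd1 (-0.68), Cacnb1 (-0.57), Cacnb2 (-0.68) and Calm3 (-0.38), with Cacnb3 lower (-0.33 ± 0.075, adjusted p = 0.00098) and Cacnb4 not called (adjusted p = 0.21). After 2 h Bic 1 of the 22 was called, Cacna2d2, higher by 0.31 ± 0.091 (adjusted p = 0.021), beside 9.02% of all genes tested and 18.6% of the expressed ones. The LP passive comparison called 1 as well, Cacnb4, higher by 0.24 ± 0.069 (adjusted p = 0.038), beside 4.65% of all genes tested.

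The likeness of other genes to each member was taken as Pearson's r over the 9 condition means of log2(CPM + 1), among genes with a mean of at least 1 CPM. For Rem2 the nearest were Per1 (r = 0.994), Mest (r = 0.994) and Sertad3 (r = 0.992), for Gem Mthfd1 (r = 0.973), Epha2 (r = 0.971) and Foxj1 (r = 0.970), and for Rrad Sstr2 (r = 0.991), Dusp14 (r = 0.987) and Stk40 (r = 0.983). Among the subunits with the largest falls, Cacna1e was nearest to Nbea (r = 0.996), Ptpro (r = 0.995) and 4933431E20Rik (r = 0.995), Cacna1c to Slit3 (r = 0.997), Soga3 (r = 0.997) and Arhgap35 (r = 0.996), and Cacna1b to Pcdha11 (r = 0.998), Kalrn (r = 0.998) and Ptpn11 (r = 0.997). Cacna1a was nearest to Smarcc2 (r = 0.993), Wnk2 (r = 0.989) and Cacna1i (r = 0.989), Cacna1h to Cacna1i (r = 0.994), Klhl18 (r = 0.987) and Wnk2 (r = 0.985), Cacna1d to Tnrc18 (r = 0.983), Klhl29 (r = 0.982) and Ptprf (r = 0.982), and Cacna1g, with the weakest likeness of the 10, to Lmf1 (r = 0.938), Anks1 (r = 0.933) and Cyp46a1 (r = 0.928). The 9 condition means are few points for a correlation, and how many genes reach such values was not counted. Over the 45 libraries as points, 2 of these 30 nearest genes were again among the nearest.

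Within conditions the pore subunits rose and fell together from library to library. The correlation of their log2 deviations from the condition mean, over the 45 libraries, had a median of 0.71 over the 21 pairs of subunits (range 0.23 to 0.94), and of -0.27 (-0.55 to 0.14) over the 21 pairs of a subunit with an RGK gene. These are descriptions, since the points of a library share its RNA, depth and normalization. Rem2 and Rrad had r = 0.75 and were both highest in preparation 8, in 9 and 7 of the 9 conditions. Gem and Rem2 had r = -0.43, and Gem was highest in preparation 7 in 5 conditions.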

How the data were processed

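The authors sequenced poly-A selected, strand-specific libraries as single-end reads, made reads with bcl2fastq (2.20.0.422), aligned them with STAR (2.5.4b) to GRCm38 and counted uniquely assigned reads per gene by strand with featureCounts (1.6.5). They deposited 1 table of raw counts, not normalized, for 54532 genes in 45 libraries, of 11316580 to 81129276 reads each. Reads shared by several genes were not counted by the authors, which lowers genes with near-identical copies. Counting by strand separates Cacna1a, Cacna1d, Cacna1h and Rrad from genes on the opposite strand that overlap them. The depth sets a counting error that matters mainly for Rrad and Gem.

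From these counts, TMM-normalized CPM and 15 pairwise comparisons of 10 libraries were computed with edgeR (4.0.16, R 4.3.3), by its quasi-likelihood test on every gene that had a read in the libraries compared (a minimum of 1), with Benjamini-Hochberg adjustment and a threshold of 0.05. The 2 interactions (active or passive effect, LP minus SP) used 20 libraries. The condition means, correlations and motif searches used Python (3.11.15). Genes called expressed had a mean of at least 1 CPM over the 45 libraries. No 2 libraries had identical counts over all genes.

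The labels give each library a replicate number. The authors define each culture preparation as a replicate, so the same number was taken to mark a shared preparation. Deviations from the condition means correlated at a mean r of 0.43 between libraries of the same preparation over 13592 genes (lowest pair -0.29), and at -0.11 between preparations. The fit with the preparation as a block, over genes that pass edgeR's filterByExpr, is the paired fit.

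Alternatives were RLE size factors, filterByExpr, DESeq2 (1.42.0), all libraries in 1 fit, the paired fit, each preparation left out, and, chosen after seeing the data, plain library totals. The pipeline was tested on simulated data. All members were named or counted. Other genes of the channel complex were counted and named where called in the LP active, LP total or 2 h Bic comparison, except 1 gene, which the counts include and which is not reported here. The 3 genes most like each member were named. The members and lists were chosen with earlier results of these data known. Sequences came from RefSeq start regions (GRCm38.p6). 5 of the 10 members matched; Gem, Rrad, Cacna1a, Cacna1g and Cacna1h did not.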

Additional observations from a re-analysis of the deposited data

Results flagged for a closer look

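In each condition, the highest and the lowest library of the 5 were compared with their nearest neighbour by Dixon's ratio, at a critical value of 0.71, for each of the 10 members. Of the 90 groups 5 had a library beyond it, and chance alone gives about 1 in 20. Rem2 in preparation 8 had 25.04 CPM after 1 h Bic, where the other libraries had 15.9 to 17.2, and 24.7 CPM with LP TTX/NMDA, where the others had 19.1 to 20.4. Rrad in preparation 8 had 1.38 CPM after 1 h Bic, against 0.348 to 0.614 in the others. Cacna1e in preparation 6 had 154.6 CPM after 0.5 h Bic, against 227 to 238. Cacna1b in preparation 8 had 240.5 CPM with LP TTX, against 249.7 to 253 in the others, a small gap within a narrow group.

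The active effect differed between the protocols for 3 members by the interaction test. The LP minus SP difference in log2 fold change was -0.31 for Cacna1c, -0.52 for Cacna1e and 1.18 for Gem. Of 11 alternative settings, 4 called it for Cacna1c, 6 for Cacna1e and all 11 for Gem. The protocols differ in both the Bic pretreatment and the exposure to TTX/NMDA, which cannot be told apart.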

How the results depend on the processing

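No value reversed its direction across the alternatives for a called member. The number of the 10 members called moved by over 1.5 times in these cases. With the preparation as a block (the paired fit), it was 2 in place of 1 for Bic 1 h against 0.5 h, 4 in place of 2 for Bic 2 h against 1 h, 5 in place of 3 for SP active, 7 in place of 1 for LP passive, 2 in place of 1 for SP TTX/NMDA against control, and 1 in place of 0 for the passive interaction. The paired fit, which adds both the block and filterByExpr, ended no call, left 148 of the members' tests on the same side of the threshold and gained 17. Of these gains 2 also came with filterByExpr alone, Cacna1d in LP passive and Cacna1b in the active interaction (adjusted p = 0.043 and 0.014). The paired fit gave no value for Rrad in 5 comparisons, where filterByExpr removed the gene, and DESeq2 gave Rrad no adjusted p in 4. With filterByExpr it was 1 in place of 2 for Bic 1 h, 0 in place of 1 for Bic 1 h against 0.5 h and 2 in place of 1 for LP passive. RLE size factors gave 0 for Bic 1 h against 0.5 h, and DESeq2 gave 2 for LP passive. With all libraries in 1 fit it was 0 for Bic 1 h against 0.5 h, 2 for SP TTX/NMDA against control and 1 in place of 3 for the active interaction. Plain library totals gave 0 for Bic 1 h against 0.5 h, 1 for Bic 2 h against 1 h, 5 in place of 8 for LP active and 1 for the active interaction.

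Leaving out each preparation gave 0 to 1 calls for Bic 1 h against Bic 0.5 h, 1 to 3 calls for Bic 2 h against Bic 1 h, 1 to 4 calls for LP passive, 0 to 1 calls for Spillover, 1 to 4 calls for SP TTX/NMDA against control and 1 to 2 calls for Active effect, LP minus SP. The cause was not tested. Of the 90 condition means, all 90 stayed within 1 SD with RLE factors, and 5 moved further with library totals. Of the 30 likeness genes, 28 were again nearest with log2(CPM + 0.5), 27 with a mean of at least 10 CPM and 2 over all 45 libraries. Depth limits Rrad most, with as few as 3 reads in a library.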
